A study of Mus musculus with 16 samples.

Results

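Transcripts of 10 interferon-inducible GTPase genes were followed across 16 mouse marrow RNA-seq libraries: the immunity-related GTPases (IRG) Irgm1, Irgm2, Igtp, Iigp1, Tgtp2 and Ifi47, and the guanylate binding proteins (GBP) Gbp2, Gbp3, Gbp6 and Gbp7. They were chosen by symbol, and all 10 were found among the 45706 gene rows of the count table. The study set out to challenge a blood system with reduced Gata2, a transcription factor of blood stem and progenitor cells, by transplanting small numbers of sorted LSK cells into irradiated WT hosts. LSK cells are marrow cells that lack lineage markers and carry Sca-1 and Kit, a population that holds the blood stem cells. The 6 groups were Day0 LSK cells labelled Gata2 (n = 3) and WT (n = 2), Day2 LSK cells labelled Gata2 (n = 2) and WT (n = 3), and Week2 CD45.2 marrow cells labelled Gata2 (n = 3) and WT (n = 3). The labels give no allele for Gata2 and no strain, age or count of animals, and the treatment that separates Day2 from Day0 is not described. Since separate animals are not stated either, each p-value measures the spread among libraries. By Ddx3y, both Day0 groups and the Week2 libraries labelled Gata2 held male and female libraries. The libraries of these groups therefore did not all come from the same animal. In the other groups the spread could be technical only.

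IRG and GBP proteins bind GTP and act inside the cell against bacteria and protozoa that live in vacuoles. In the mouse their genes are switched on by interferon gamma, through gamma-activated sites (GAS) and through IRF1, and by type I interferon, through interferon-stimulated response elements (ISRE). Irgm1, Irgm2 and Igtp belong to the regulatory IRGM class, which sits on host membranes and holds the other IRGs inactive there. Iigp1, Tgtp2 and Ifi47 belong to the effector class, and Iigp1 and Tgtp2 are known to coat and disrupt the vacuole of Toxoplasma in the mouse. GBPs join these coats, which also depend on the proteins that conjugate the autophagy protein Atg8. In mouse marrow, loss of Irgm1 is known to push blood stem cells into cycle through interferon signalling.

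In GRCm38 (mm10) with the GENCODE M21 annotation, 5 members lie on chromosome 11. These are Irgm1 (chr11:48861968-48871683), Tgtp2 (chr11:49057194-49064206), Ifi47 (chr11:49076587-49096974), Igtp (chr11:58199556-58207591) and Irgm2 (chr11:58199618-58222782). Gbp7 (chr3:142530342-142550149), Gbp3 (chr3:142560026-142573209) and Gbp2 (chr3:142620602-142638008) are neighbours on chromosome 3. Gbp6 lies on chromosome 5 (chr5:105270702-105293698), and Iigp1 lies apart from all of these. All 10 are annotated as protein-coding. Igtp and Irgm2 overlap on the same strand and share 162 exon bases, so part of their reads could be counted for either. Tgtp2 has a near-identical copy, Tgtp1, and Gbp6 shares 1726 exon bases with Gm43302, which reached at most 0.0204 CPM (counts scaled to a common library size, with TMM factors). How reads shared by such copies were counted is not stated, so their split is uncertain.

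Sequence before the start site was available for 8 of the 10 members, as 9 windows of 300 bases from RefSeq (GRCm38.p6). Each window runs from 250 bases before to 50 bases after a start site. The ISRE core was searched as GAAANNGAAA and the GAS core as TTCNNNGAA, on both strands. The exact ISRE core was present in 7 of the 8 genes, against 3.44% of all 32851 RefSeq windows of the same length, and the GAS core in 4 of the 8 genes, against 8.3% of windows. The stretches around the ISRE core are printed 5′ to 3′ along each gene, because these are the elements through which interferon acts on the families; capitals mark the exact matches to either core.
Irgm1: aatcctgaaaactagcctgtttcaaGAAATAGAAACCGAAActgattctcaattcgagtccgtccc
Irgm2: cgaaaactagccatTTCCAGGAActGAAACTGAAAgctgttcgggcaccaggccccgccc
Igtp: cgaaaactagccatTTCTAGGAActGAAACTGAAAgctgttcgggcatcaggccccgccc
Tgtp2: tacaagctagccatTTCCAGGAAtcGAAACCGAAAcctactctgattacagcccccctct
Gbp2: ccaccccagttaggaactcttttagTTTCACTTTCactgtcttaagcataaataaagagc
Gbp3: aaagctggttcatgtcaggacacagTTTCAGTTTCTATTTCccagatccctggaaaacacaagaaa
Gbp7: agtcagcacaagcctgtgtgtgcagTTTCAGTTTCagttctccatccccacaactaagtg
These stretches are chr11:48871410-48871475 (minus strand) for Irgm1, chr11:58214888-58214947 (plus) for Irgm2, chr11:58199497-58199556 (plus) for Igtp and chr11:49064248-49064307 (minus) for Tgtp2. The GBP stretches, all on the plus strand, are chr3:142620579-142620638 for Gbp2, chr3:142559974-142560039 for Gbp3 and chr3:142530258-142530317 for Gbp7.

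With the start site as position 0, the ISRE match lies at -34 to -25 in Igtp, -64 to -55 in Irgm2, -70 to -61 in Tgtp2, -59 to -50 in Gbp2 and -53 to -44 in Gbp7. Irgm1 (-30 to -21 and -24 to -15) and Gbp3 (-45 to -36 and -39 to -30) each hold a pair of overlapping ISRE matches. In Igtp, Irgm2 and Tgtp2 a GAS match lies just before the ISRE, at -45 to -37, -75 to -67 and -81 to -73. Gbp7 holds 2 GAS matches, at -106 to -98 and -87 to -79, and no GAS match overlaps an ISRE match. The printed Igtp and Irgm2 stretches are identical at 58 of 60 bases, while Tgtp2 is identical to Igtp at 40 and to Irgm2 at 41. In the 3 printed GBPs the match is to the reverse complement of the core. Neither core was found in the Ifi47 window or in the window of a second Gbp3 start. With 1 mismatch allowed the ISRE core was found in all 8 genes and in 35.4% of all windows.

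**Figure D1:**
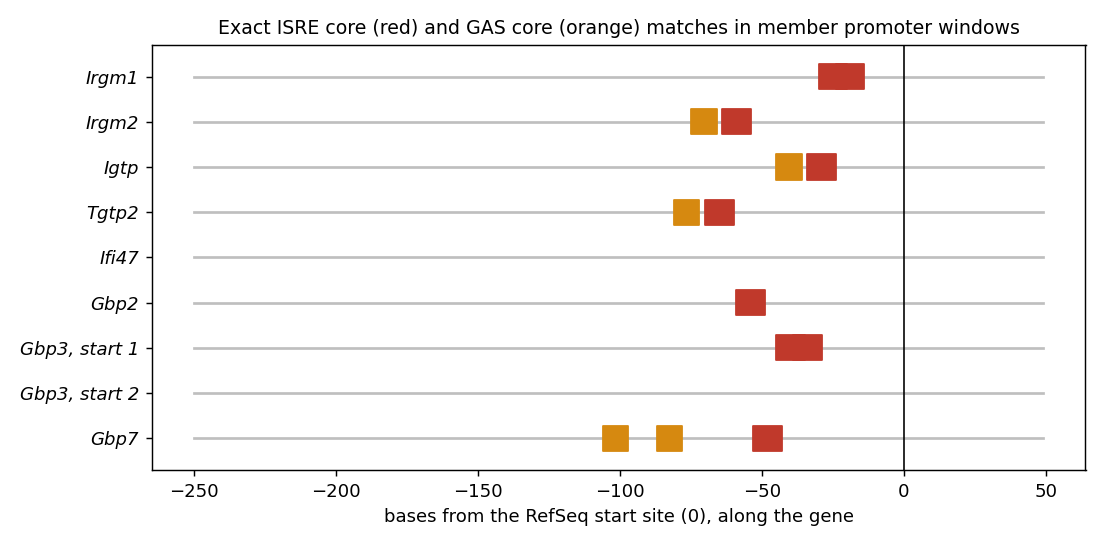
Positions of exact ISRE core matches (red) and GAS core matches (orange) in the 9 member windows, in bases from the RefSeq start site at 0 (x axis), with 1 line per window. The matches of 7 genes lie within 106 bases before the start, and the Ifi47 window and the second Gbp3 window hold none.

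The LSK libraries held 19.6 to 68.3 M counts and the Week2 libraries 177 to 321 M. Kit and Ly6a, the genes of Kit and Sca-1, were expressed in all LSK libraries: Kit averaged 656 ± 93.6 CPM in Day0 libraries labelled Gata2 and 526 ± 8.75 CPM in Day0 WT. In Week2 cells the 8 neutrophil markers summed to 18310 to 79110 CPM in libraries labelled Gata2 and 17270 to 64610 CPM in WT, although the protocol speaks of lineage-negative cells. Gata2 itself was not lower in libraries labelled Gata2: it averaged 736 ± 73.3 CPM there at Day0, against 381 ± 25.3 CPM in WT (log2 fold change 0.81, SE 0.20, adjusted p = 0.341). Its difference was 1.18 at Day2 on that scale (SE 0.19, adjusted p = 0.207) and 0.35 at Week2 (SE 0.46, adjusted p = 1). The genotype is therefore given as labelled, and no direction between genotypes below is tied to a checked loss of Gata2. Day0 WT replicate 1 stood apart: it was the shallowest library, correlated with Day0 WT replicate 2 at r = 0.876 across genes, and had the highest share of counts on TEC genes (unsettled loci of the annotation), at 0.362%.

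Per kilobase of exon, Ifi47 had the highest level of the 10 members in every group and Igtp the next. In Day0 LSK cells Ifi47 averaged 45.6 ± 0.95 CPM per kb in libraries labelled Gata2 and 33.2 ± 12.98 in WT. Igtp averaged 27.0 ± 1.15 CPM per kb in libraries labelled Gata2 and 23.3 ± 1.91 in WT. Iigp1 and Gbp6 were the lowest pair in all 6 groups, at 3.80 ± 0.37 and 0.72 ± 0.63 CPM per kb in Day0 libraries labelled Gata2. At Day0 the libraries labelled Gata2 placed Tgtp2 (26.9 ± 1.83), Gbp3 (21.7 ± 2.89), Irgm1 (19.0 ± 0.84), Gbp7 (17.1 ± 1.11), Gbp2 (13.5 ± 1.44) and Irgm2 (9.97 ± 1.34 CPM per kb) between them. Igtp and Tgtp2 differed there by less than their spread, and so did Gbp3 and Irgm1. In Day2 WT cells Ifi47 stood at 48.9 ± 2.20 CPM per kb and the next 4 members, Igtp, Gbp7, Irgm1 and Gbp3, lay between 9.45 and 11.9. Those 4 overlapped within their spread in part, and Iigp1 was then the lowest member, at 0.26 ± 0.14 CPM per kb, below Gbp6 at 0.82 ± 0.13.

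**Figure D2:**
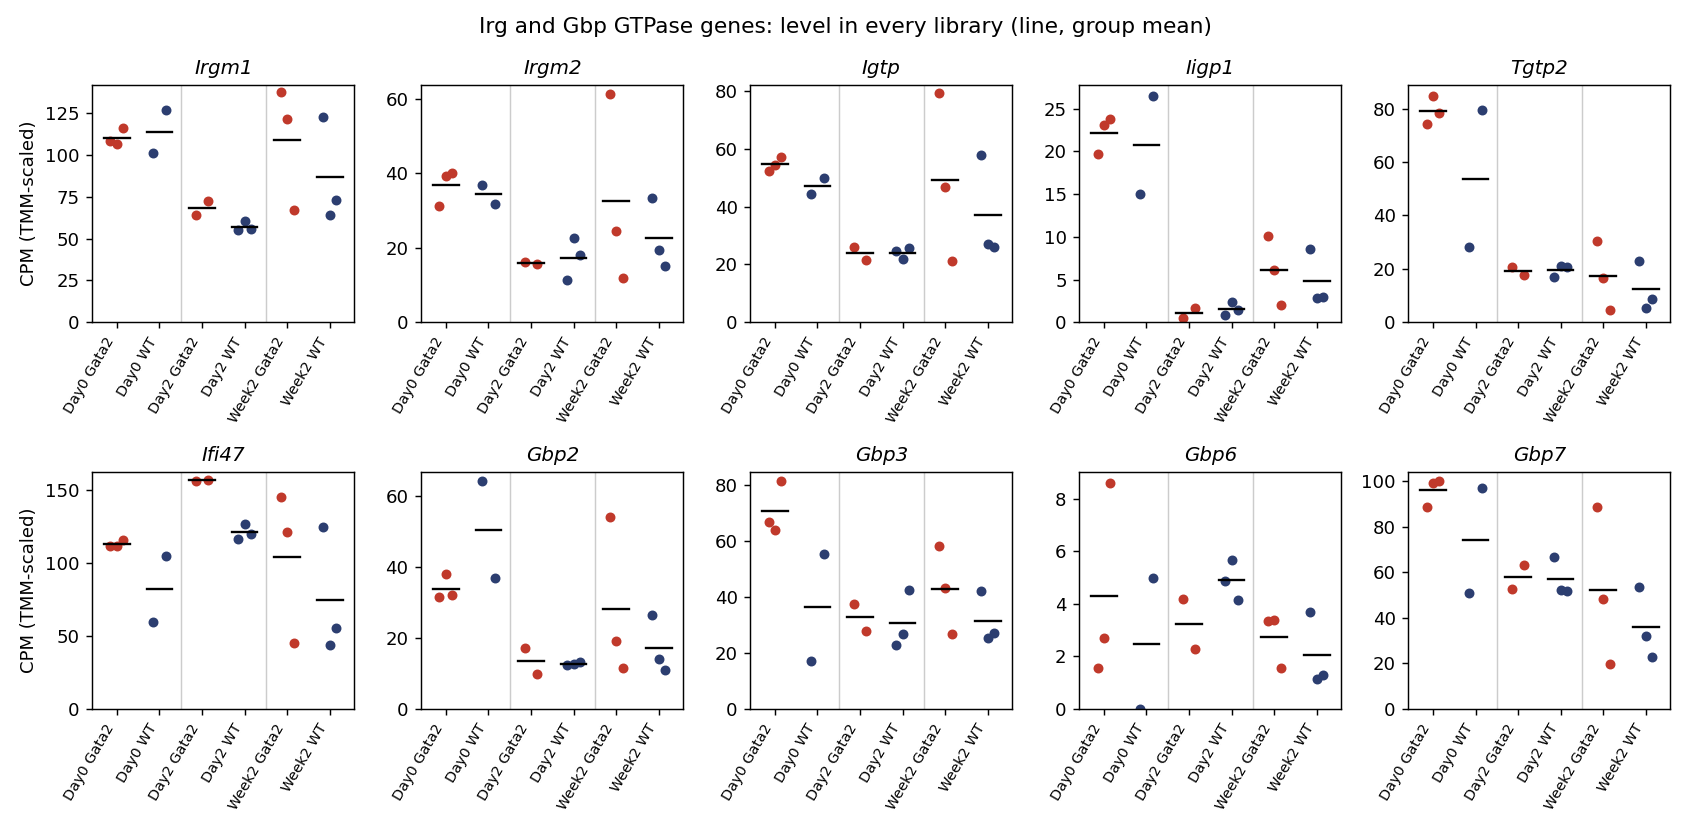
Level of each member in every library, in TMM-scaled CPM (y axis, from 0), by group (x axis); points are libraries, red for those labelled Gata2 and blue for WT, and black lines are group means. Iigp1 and Tgtp2 sit lower in all Day2 than in all Day0 libraries, while Ifi47 sits higher.

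Between Day0 and Day2 the regulatory IRGM genes fell in LSK cells of both labels. Irgm1 had 64.0 and 72.4 CPM in Day2 libraries labelled Gata2, against 108, 106 and 116 CPM at Day0, and 54.8, 60.5 and 55.7 CPM in Day2 WT, against 101 and 126 CPM at Day0. No Day2 library reached any Day0 library of the same label. Irgm1 changed on the log2 scale by -0.68 (SE 0.13, adjusted p = 0.0112) in libraries labelled Gata2 and -1.09 (SE 0.12, adjusted p = 0.000561) in WT. Irgm2 had 16.2 and 15.5 CPM in Day2 libraries labelled Gata2, against 31.1, 39.3 and 39.97 CPM at Day0, and 11.5, 22.5 and 18.1 CPM in Day2 WT, against 36.9 and 31.8 CPM at Day0. Irgm2 changed by -1.20 (SE 0.31, adjusted p = 0.0433) in libraries labelled Gata2 and -1.10 (SE 0.30, adjusted p = 0.0229) in WT, again without overlap. Igtp had 26.1 and 21.6 CPM in Day2 libraries labelled Gata2, against 52.5, 54.4 and 57.1 CPM at Day0. In WT it had 24.6, 21.9 and 25.6 CPM at Day2, against 44.4 and 49.9 CPM at Day0. The spread of Igtp within each group was small beside its change of -1.17 (SE 0.18, adjusted p = 0.00434) in libraries labelled Gata2 and -1.07 (SE 0.17, adjusted p = 0.00263) in WT. In bulk RNA, fewer cells of a type and less RNA per cell cannot be told apart.

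Among the effector IRGs, Iigp1 showed the largest change of the 10 members in both labels. Iigp1 had 0.54 and 1.72 CPM (26 and 80 counts) in Day2 libraries labelled Gata2, against 19.7, 23.04 and 23.8 CPM at Day0. In WT it had 0.80, 2.42 and 1.39 CPM (39, 113 and 66 counts) at Day2, against 15.01 and 26.5 CPM at Day0. Every Day2 library was thus well below every Day0 library, with a level 19.5-fold lower in libraries labelled Gata2 (log2 fold change -4.29, SE 0.64, adjusted p = 0.00403) and 14.1-fold lower in WT (-3.81, SE 0.55, adjusted p = 0.00164). Tgtp2 had 20.9 and 17.8 CPM in Day2 libraries labelled Gata2, against 74.2, 84.8 and 78.3 CPM at Day0 (log2 fold change -2.02, SE 0.33, adjusted p = 0.00583). In WT it had 17.1, 21.02 and 20.6 CPM at Day2, against 28.02 CPM in Day0 replicate 1 and 79.4 CPM in replicate 2 (-1.49, SE 0.30, adjusted p = 0.00744). The Day2 level of Tgtp2 was tight in both labels, and the WT change spans a wide Day0 pair. Its near-identical copy Tgtp1 fell alongside, with -2.246 (SE 0.29, adjusted p = 0.00203) in libraries labelled Gata2 and -2.05 (SE 0.26, adjusted p = 0.000966) in WT.

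Ifi47 went the other way. It had 156 and 157 CPM in Day2 libraries labelled Gata2, against 112, 111 and 116 CPM at Day0, and 116, 127 and 120 CPM in Day2 WT, against 59.3 and 105 CPM at Day0. All Day2 libraries were higher than all Day0 libraries of the same label. Both labels gave 0.49 on the log2 scale, passing the threshold in WT (SE 0.16, adjusted p = 0.0429) and not in libraries labelled Gata2 (SE 0.16, adjusted p = 0.0812). The WT call rests on Day0 WT replicate 1: without it the log2 fold change was 0.23 (adjusted p = 0.204). The call was also lost in 17 other alternatives of 22, and the sign turned in 1, with the TEC share as a term (-0.16, adjusted p = 0.669).

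Of the GBPs, Gbp2, which is recruited to pathogen vacuoles, fell in WT. It had 12.5, 12.6 and 13.2 CPM in Day2 WT, against 64.2 and 36.8 CPM at Day0 (log2 fold change -2.13, SE 0.34, adjusted p = 0.00281). In libraries labelled Gata2 it had 17.4 and 9.78 CPM at Day2, against 31.6, 38.1 and 32.1 CPM at Day0 (-1.302, SE 0.36, adjusted p = 0.0524). The groups did not overlap in either label. Gbp7 had 52.6 and 63.3 CPM in Day2 libraries labelled Gata2, against 88.8, 99.0 and 100.1 CPM at Day0 (-0.71, SE 0.21, adjusted p = 0.0656). In WT Gbp7 had 66.9, 52.1 and 51.6 CPM at Day2, between the 50.8 and 97.1 CPM of Day0 (-0.44, SE 0.20, adjusted p = 0.129). Gbp3 had 37.6 and 28.1 CPM in Day2 libraries labelled Gata2, against 66.8, 64.1 and 81.6 CPM at Day0 (-1.09, SE 0.41, adjusted p = 0.132). In WT the Gbp3 levels of 22.9, 27.0 and 42.7 CPM at Day2 lay within the 17.1 and 55.6 CPM of Day0 (-0.26, SE 0.39, adjusted p = 0.641). Gbp6 was low throughout, with 4.197 and 2.28 CPM in Day2 libraries labelled Gata2, against 1.57, 2.71 and 8.60 CPM at Day0. In WT it had 4.86, 5.68 and 4.16 CPM at Day2, against 0 counts in Day0 replicate 1, which allows up to 0.13 CPM by counting error alone, and 4.99 CPM in replicate 2. Gbp6 groups overlapped in libraries labelled Gata2 and in WT, and its log2 fold changes were -0.37 (SE 1.25, adjusted p = 0.903) and 0.99 (SE 1.28, adjusted p = 0.586).

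**Figure D3:**
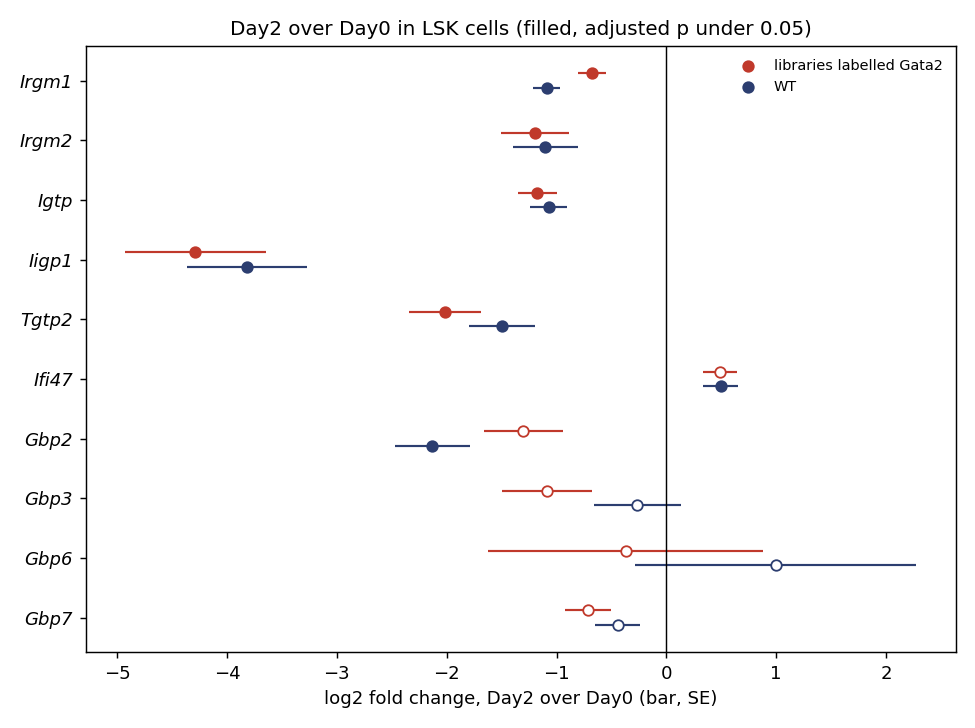
Log2 fold change of Day2 over Day0 in LSK cells (x axis) for each member, red for libraries labelled Gata2 and blue for WT; bars are the SE and filled points passed an adjusted p of 0.05. Iigp1 lies farthest to the left in both labels, at -4.29 and -3.81, and Ifi47 lies at 0.49 in both.

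Counted together, 5 of the 10 members fell and 0 rose in libraries labelled Gata2, where 9.3% of 19162 tested genes were called (4.48% higher and 4.82% lower). In WT 6 fell and 1 rose, where 29.9% of genes were called (11.9% higher and 17.9% lower). The members' median log2 fold change was -1.13 in libraries labelled Gata2 and -1.08 in WT, against -0.07 and -0.11 over all tested genes. Levels did not overlap, with Day2 lower, for 8 members in libraries labelled Gata2 (34.5% of all genes did so) and for 6 in WT (25.7% of genes). Ifi47 alone was higher without overlap in both labels, as were 25% of genes in libraries labelled Gata2 and 25.7% in WT. Without Day0 WT replicate 1 the counts were 8 lower and 1 higher in libraries labelled Gata2 (24.3% of genes called) and 6 lower and 0 higher in WT (23% of genes), Gbp7 (-0.75, adjusted p = 0.0137) taking the place of Irgm2 (-0.85, adjusted p = 0.0728) in WT. In libraries labelled Gata2, 2 members passed without Day2 replicate 1 of that label (499 of 21763 genes called), and 3 without Day2 replicate 2 (804 of 21781 genes) or any one of the Day0 replicates (698 to 862 genes). Without Day0 WT replicate 2 the count in libraries labelled Gata2 was 8 lower and 1 higher, where 21.2% of genes were called. Iigp1 fell under all 22 alternatives in both labels, and Irgm1 under all 22 in WT.

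The time comparison carried other differences between libraries. The TEC share was 0.0648 to 0.0702% in Day2 libraries labelled Gata2, against 0.131 to 0.159% at Day0, and 0.0314 to 0.0582% in Day2 WT, against 0.187 to 0.362% at Day0. With that share as a term, a choice made after the data were seen, 8 members were called lower in libraries labelled Gata2 (26.3% of genes called) and 5 in WT (12.3% of genes). In WT, Igtp (-0.94, adjusted p = 0.0822), Irgm2 (-0.63, adjusted p = 0.537) and Gbp2 (-0.75, adjusted p = 0.415) then missed the threshold. All 5 Day2 libraries were male by Ddx3y, against 2 male and 1 female Day0 libraries labelled Gata2 and 1 of each in Day0 WT. The 8 LSK markers summed to 1615 to 1709 CPM in Day2 libraries labelled Gata2, against 2369 to 2636 CPM at Day0, and to 1691 to 1796 CPM in Day2 WT, against 1795 to 2283 CPM at Day0. Ly6a, the Sca-1 gene and itself interferon-inducible, was among the 3 of 8 that fell in libraries labelled Gata2 (-1.38, adjusted p = 0.00801) and the 4 of 8 that fell in WT (-1.10, adjusted p = 0.0083).

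Markers of T and NK cells, the main makers of interferon gamma, had counts in LSK cells. Their sum was lower at Day2 in libraries labelled Gata2, while in WT the Day2 and Day0 sums overlapped. Of the 10, 4 fell in libraries labelled Gata2 and 5 in WT. Of all tested genes, 4.82% fell and 4.48% rose in libraries labelled Gata2, and 17.9% fell and 11.9% rose in WT. The 10 markers summed to 134 to 165 CPM in Day2 libraries labelled Gata2, against 216 to 303 CPM at Day0, and 114 to 153 CPM in Day2 WT, against 137 to 220 CPM at Day0. Cd3e, Cd3g, Cd8a and Gzma had 0 counts in all 5 Day2 libraries, and Cd3d in those labelled Gata2. At Day0 these genes averaged 0.54 to 1.76 CPM each in libraries labelled Gata2, so most of the sum came from the other markers. Ifng itself had 0 counts in all Day2 libraries, which allows up to 0.0645 CPM, and 21 counts over the Day0 libraries labelled Gata2 and 14 over Day0 WT. Of the 8 B cell markers, 1 fell in libraries labelled Gata2 and 5 in WT, and the sum was 26.5 to 33.5 CPM in Day2 libraries labelled Gata2, against 73.8 to 107 CPM at Day0, and 22.7 to 36.6 CPM in Day2 WT, against 67.2 to 144 CPM at Day0. Of the 8 neutrophil markers, 2 rose in libraries labelled Gata2 and 6 in WT, to sums of 655 to 1058 CPM at Day2 against 171 to 311 CPM at Day0 in libraries labelled Gata2, and 955 to 1837 CPM against 67.9 to 193 CPM in WT. Of the 8 monocyte and macrophage markers, 1 rose and 1 fell in each label and 5 had log2 fold changes below 0, with medians of -0.29 in libraries labelled Gata2 and -0.65 in WT. They summed to 760 to 767 CPM in Day2 libraries labelled Gata2, against 231 to 589 CPM at Day0, and to 719 to 951 CPM in Day2 WT, against 276 to 349 CPM at Day0. The part of these cell types, of sex and of library quality in the members' changes was not tested beyond the fits given here.

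The other genes of the pathway were read from lists chosen by function. Of 13 further Irg and Gbp genes tested, 3 fell in libraries labelled Gata2 (Tgtp1, Gvin1 and Gm4951) and 4 in WT, and none rose. Over all tested genes, 4.82% fell and 4.48% rose in libraries labelled Gata2, and 17.9% fell and 11.9% rose in WT. The WT count of this list is near the 29.9% of all genes called in either direction. The list's median log2 fold change as fitted was -1.97 in libraries labelled Gata2 and -0.36 in WT. With genes at 0 counts set at their bound of 3 counts per library, and without Irgc1 in the libraries labelled Gata2, where both times were at or under that floor, it was -1.52 and -0.362. Gvin1, a very large interferon-inducible GTPase, gave -2.12 (SE 0.45, adjusted p = 0.0191) in libraries labelled Gata2 and -1.87 (SE 0.41, adjusted p = 0.0105) in WT. Of the pathway lists, classical type I interferon targets had the lowest medians, at -2.39 in libraries labelled Gata2 and -1.93 in WT. Of the 24, 16 and 20 fell and 0 rose. Some cell type markers fell further, with genes at 0 counts at their bound. In the same order of labels the medians were -3.22 and -2.92 for T and NK cell markers and -2.81 and -4.08 for B cell markers. Erythroid markers had -1.21 and -2.35. Rtp4, a chaperone of receptors and a broad interferon target, fell by 3.55 (SE 0.30, adjusted p = 0.000238) in libraries labelled Gata2 and by 3.56 (SE 0.27, adjusted p = 0.000105) in WT on the log2 scale. Oas2, which makes the activator of RNase L on sensing double-stranded RNA, fell by 6.31 (SE 0.69, adjusted p = 0.000907) in libraries labelled Gata2 and by 5.76 (SE 0.57, adjusted p = 0.000328) in WT. Without Day0 WT replicate 1, 23 of the 24 fell in libraries labelled Gata2 and 21 in WT. In WT the count was 10 with limma voom and 11 with the TEC share as a term. All genes called in WT also dropped, from 5720 of 19162 to 1334 and 2358 in those fits.

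Receptor and signalling genes, other interferon gamma targets and Atg8 conjugation genes were called at shares that are read against the 9.3% of all genes called in libraries labelled Gata2 and the 29.9% called in WT; their counts lie near those shares. Of 11 interferon gamma receptor, JAK and STAT genes tested, 1 fell and 0 rose in libraries labelled Gata2, while 2 fell and 2 rose in WT; the medians were -0.11 and -0.17. Irf1, a transcription factor that binds ISREs, averaged 73.5 ± 3.59 CPM in Day2 libraries labelled Gata2, against 156 ± 10.7 CPM at Day0 (-1.08, SE 0.15, adjusted p = 0.0029). In WT it averaged 74.8 ± 6.48 CPM at Day2, against 158 ± 2.58 CPM at Day0 (-1.18, SE 0.14, adjusted p = 0.000724). Socs3, a feedback inhibitor of JAK signalling, rose in WT (1.31, SE 0.36, adjusted p = 0.025). Of 18 other interferon gamma targets, 2 fell in libraries labelled Gata2 and 6 fell and 1 rose in WT. Among them Nlrc5, the activator of MHC class I genes, gave -1.302 (SE 0.22, adjusted p = 0.00742) in libraries labelled Gata2 and -1.303 (SE 0.21, adjusted p = 0.00297) in WT. Of the 10 Atg8 conjugation genes, 0 were called in libraries labelled Gata2, and in WT 2 fell and 2 rose, among them Map1lc3a (-1.26, SE 0.24, adjusted p = 0.00542) and Atg7 (1.09, SE 0.31, adjusted p = 0.0264).

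**Figure D4:**
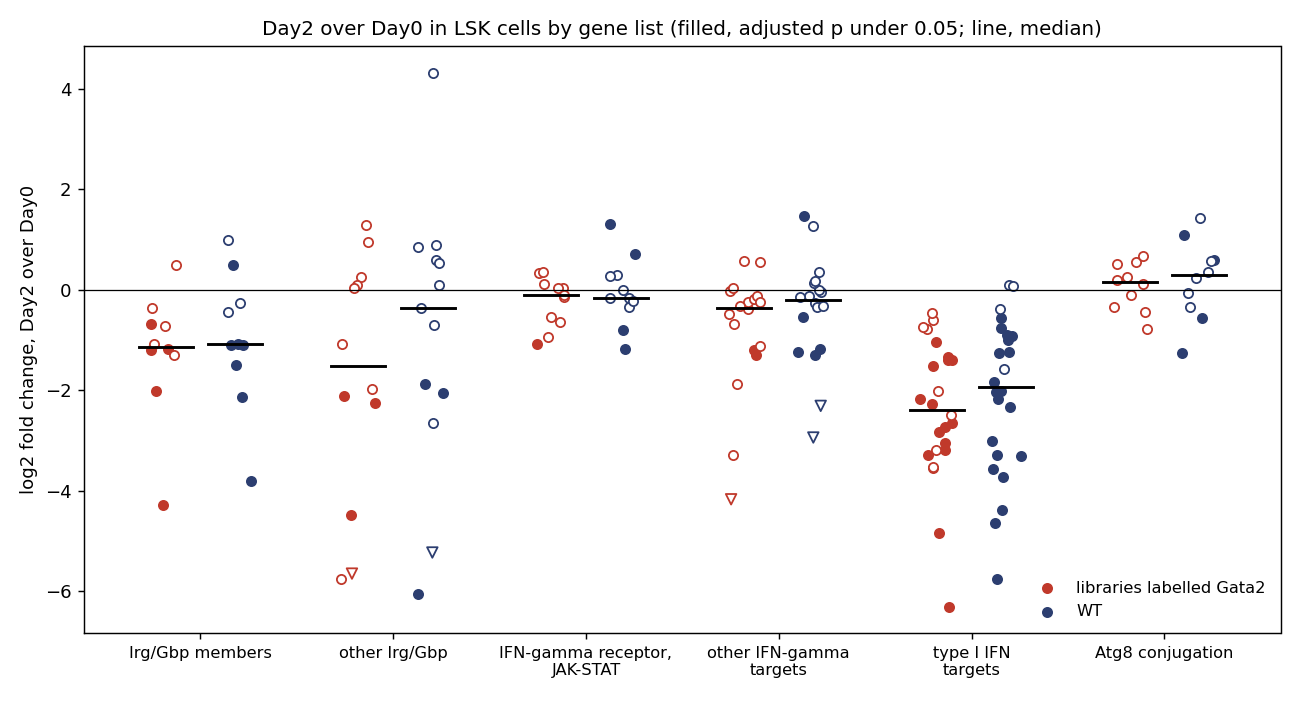
Log2 fold change of Day2 over Day0 in LSK cells (y axis) for every tested gene of the members and of 5 functional lists (x axis), red for libraries labelled Gata2 and blue for WT. Filled points passed an adjusted p of 0.05, black lines are medians and triangles are genes with 0 counts at Day2, drawn at their bound whatever their call. The type I interferon targets have medians of -2.39 and -1.93 and the members -1.13 and -1.08.

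Between the labels, none of the 10 members passed the test at Day0, Day2 or Week2 in edgeR, and 0% of all tested genes did. At an unadjusted p under 0.05 there was 1 member at Day0, 1 at Day2 and 0 at Week2. Over all genes there were 2586 of 19162 at Day0, 1070 of 19162 at Day2 and 87 of 36485 at Week2. DESeq2 called 0 members at each time, among 417, 144 and 1 genes called. The limma voom fit with quality weights called 0, 0 and 10 members, among 0, 21 and 12016 genes called. At Day0 the lowest p values belonged to Ifi47, which gave 0.37 on the log2 scale (SE 0.16, adjusted p = 0.361), and Gbp3, with 0.91 (SE 0.41, adjusted p = 0.370). Igtp, Ifi47 and Gbp3 were higher in all 3 libraries labelled Gata2 than in both WT libraries, as were 18.2% of all genes. For Gbp3 the values were 66.8, 64.1 and 81.6 CPM in libraries labelled Gata2, against 17.1 and 55.6 CPM in WT. At Day2 Irgm1 (0.25, SE 0.13, adjusted p = 0.924) and Ifi47 (0.36, SE 0.16, adjusted p = 0.879) were higher without overlap in libraries labelled Gata2, as were 10% of genes.

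The Day0 result turned on the WT pair. With WT replicate 1 as the lone Day0 WT library (its spread taken from the other groups), 5 members were called higher and 1 lower in libraries labelled Gata2, among 8655 of 21682 genes called. These were Tgtp2 (1.42, adjusted p = 0.000375), Ifi47 (0.85, adjusted p = 0.0008), Gbp7 (0.84, adjusted p = 0.0126), Gbp3 (1.97, adjusted p = 0.00204), Gbp2 (-0.9997, adjusted p = 0.0115) and Gbp6, which has 0 counts in that library. With WT replicate 2 as the lone library no gene was called, and Gbp3 gave 0.37 and Tgtp2 0.02. The difference between the label effects at Day2 and at Day0 was called for 0 members, and for 1 at an unadjusted p under 0.05, which was Irgm1 (0.41, SE 0.18, adjusted p = 0.475). Over all genes 1984 of 19162 had an unadjusted p under 0.05. Gbp2 gave 0.83 (SE 0.48, adjusted p = 0.550). Without Day0 WT replicate 2, 4 members passed in that comparison, 1 higher and 3 lower, among 6733 of 21682 genes called. With all libraries, the time changes of the 2 labels were not shown to differ.

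**Figure D5:**
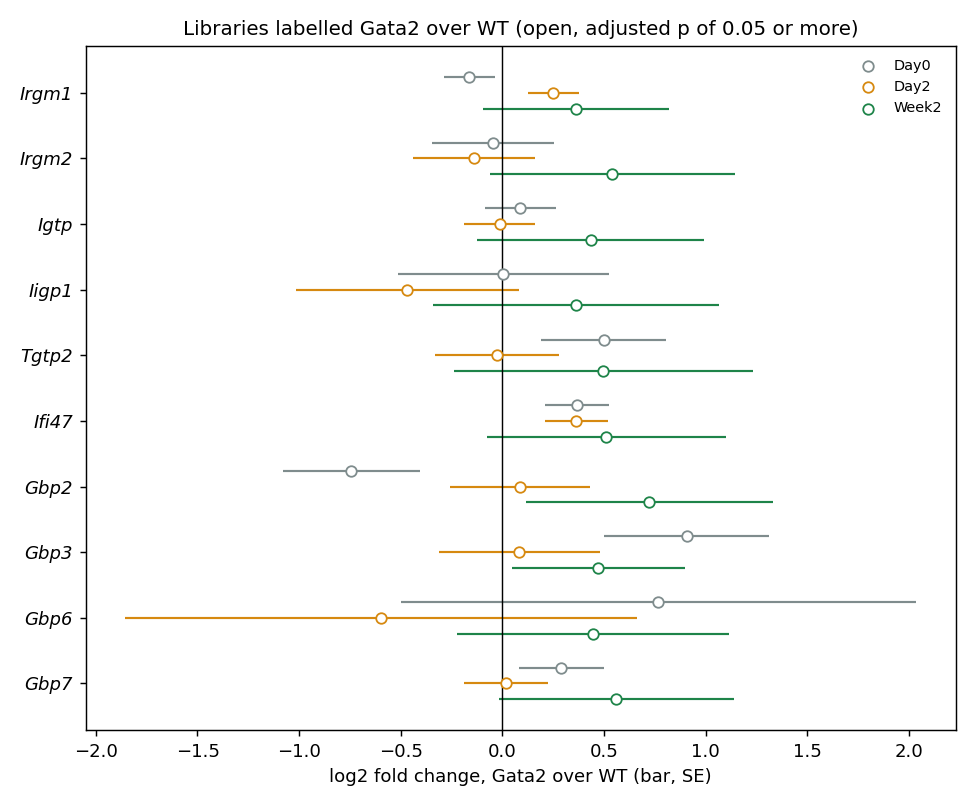
Log2 fold change of libraries labelled Gata2 over WT (x axis) for each member at Day0 (grey), Day2 (orange) and Week2 (green); bars are the SE, and all points are open because none passed an adjusted p of 0.05. All 10 Week2 points lie above 0, between 0.36 and 0.72.

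At Week2 the members went up and down together from library to library, across the labels. In order of replicate, Irgm1 had 138, 121 and 67.0 CPM in libraries labelled Gata2, against 123, 64.1 and 73.1 CPM in WT. Igtp had 79.2, 46.9 and 21.3 CPM in libraries labelled Gata2, against 57.8, 27.1 and 25.9 CPM in WT. Gbp2 had 54.2, 19.1 and 11.4 CPM in libraries labelled Gata2, against 26.4, 14.1 and 11.1 CPM in WT. In each case replicate 1 of either label was high and replicate 3 of the libraries labelled Gata2 was among the lowest. By Ddx3y that replicate 3 was the only female Week2 library, and it was the shallowest of them, with 177 M counts. All 3 Week2 WT libraries were male. Irgm2 had 61.2, 24.4 and 11.8 CPM in libraries labelled Gata2, against 33.4, 19.3 and 15.1 CPM in WT. Ifi47 had 145, 121 and 45.3 CPM in libraries labelled Gata2, against 125, 43.8 and 55.2 CPM in WT. Gbp7 had 88.5, 48.5 and 19.9 CPM in libraries labelled Gata2, against 53.4, 32.1 and 23.1 CPM in WT. The same order held for the remaining members in outline. Gbp3 had 58.3, 43.1 and 26.8 CPM in libraries labelled Gata2, against 42.1, 25.5 and 27.1 CPM in WT. Tgtp2 had 30.5, 16.5 and 4.59 CPM in libraries labelled Gata2, against 22.8, 5.33 and 8.79 CPM in WT. Iigp1 had 10.1, 6.14 and 1.98 CPM in libraries labelled Gata2, against 8.58, 2.84 and 2.94 CPM in WT. Gbp6 stayed low, with 3.34, 3.40 and 1.55 CPM in libraries labelled Gata2, against 3.70, 1.16 and 1.296 CPM in WT.

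Every member overlapped between the labels at Week2, where 0.743% of genes were higher and 0.781% lower without overlap, although all 10 log2 fold changes were above 0, with a median of 0.48 against 0.00 over all genes. The lowest p values were those of Gbp2 (0.72, SE 0.61, adjusted p = 1) and Gbp3 (0.47, SE 0.43, adjusted p = 1). Without Week2 replicate 1 of the libraries labelled Gata2, 4 of the 10 were above 0 and the median was -0.06. The 10 calls of limma voom with quality weights, at a median of 1.11, stood among 32.9% of all genes called by that tool. The members' summed level was 668, 451 and 212 CPM in libraries labelled Gata2, against 495, 235 and 244 CPM in WT. The TEC share ran the other way, at 0.0541, 0.0947 and 0.316% in libraries labelled Gata2, against 0.0773, 0.21 and 0.201% in WT. With that share as a term, 0 members were called and the median was 0.31. The 8 monocyte and macrophage markers all had log2 fold changes above 0, 0 of them called, with sums of 583 to 1801 CPM in libraries labelled Gata2, against 513 to 1066 CPM in WT. Of the 10 T and NK cell markers 8 were above 0 (median 0.50), of the 8 dendritic cell markers 8 (median 0.29), of the 8 B cell markers 6 (median 0.04), of the 8 neutrophil markers 2 (median -0.21) and of the 8 erythroid markers 1 (median -1.301), and 0 of these were called. The part of these cell types was not tested.

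Set against Day0 LSK cells, Week2 marrow cells were lower in the effector IRGs Tgtp2 and Iigp1, while the effector Ifi47 gave 0.09 (adjusted p = 0.829) in libraries labelled Gata2 and 0.05 (adjusted p = 0.923) in WT. Time and cell population cannot be told apart in this comparison, in which the median gene was 1.22 higher on the log2 scale in libraries labelled Gata2 and 0.95 higher in WT. Tgtp2 fell by 2.01 (SE 0.54, adjusted p = 0.0118) in libraries labelled Gata2 and by 1.92 (SE 0.58, adjusted p = 0.0233) in WT on the log2 scale. Iigp1 fell by 1.67 (SE 0.57, adjusted p = 0.0292) in libraries labelled Gata2 and by 1.93 (SE 0.61, adjusted p = 0.0277) in WT. Gbp2 fell in WT, by 1.42 (SE 0.47, adjusted p = 0.0328), and gave -0.07 (SE 0.43, adjusted p = 0.902) in libraries labelled Gata2. In all, 2 members were called lower in libraries labelled Gata2, where 43% of 31164 genes were called (32.6% higher and 10.4% lower), and 3 in WT, where 33.5% were called (21.9% higher and 11.6% lower), and 0 were called higher. Without overlap, 4 members were lower and 0 higher in libraries labelled Gata2 (22.6% and 40.1% of genes), and 3 were lower and 0 higher in WT (17.9% and 42% of genes). The calls depended on single libraries. In WT 2 were lower without replicate 1 or 2 of the Day0 libraries labelled Gata2, and 0 without Week2 WT replicate 2 or 3. With Day0 WT replicate 2 as the lone Day0 WT library, Tgtp2 gave -2.42, Iigp1 -2.19 and Gbp2 -0.81. With replicate 1 as the lone library they gave -1.15, -1.60 and -1.84. Gbp6 gave 11.2 in that last fit, and it has 0 counts in that lone library. In libraries labelled Gata2, 1 member was called without any one of the 3 Day0 replicates or without Week2 replicate 2 or 3, and 3 without Week2 replicate 1. All genes called there moved as well, from 13396 to 6289, 6872 and 5420 without Day0 replicate 1, 2 or 3. They were 12079 and 7553 without Week2 replicate 2 or 3, and 14992 without Week2 replicate 1. In WT they went from 10427 to 8994 and 8947 without Day0 replicate 1 or 2 of the libraries labelled Gata2. Without Week2 WT replicate 2 or 3 they were 6013 and 6307. These fits tested 29462 to 31189 genes.

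Iigp1 was thus lower than at Day0 at both later times. It averaged 22.2 ± 2.18, 1.13 ± 0.83 and 6.08 ± 4.07 CPM at Day0, Day2 and Week2 in libraries labelled Gata2, and 20.7 ± 8.10, 1.54 ± 0.82 and 4.79 ± 3.28 CPM in WT. At Week2 over Day0, Irf1 gave 0.43 (SE 0.18, adjusted p = 0.0646) in libraries labelled Gata2 and 0.11 (SE 0.21, adjusted p = 0.691) in WT. Between the labels Irf1 gave -0.14 (adjusted p = 0.647) at Day0, -0.03 (adjusted p = 1) at Day2 and 0.27 (adjusted p = 1) at Week2. Of the 14 further Irg and Gbp genes, 5 were called higher and 1 lower at Week2 than at Day0 in libraries labelled Gata2, where 43% of all genes were called, and 4 higher and 1 lower in WT, where 33.5% were. These counts are near the share of all genes. The lower one in both was Tgtp1 (-2.76, SE 0.55, adjusted p = 0.00161 in libraries labelled Gata2, and -3.26, SE 0.59, adjusted p = 0.000843 in WT). Gbp9 rose (4.52, SE 0.39, adjusted p = 4.11e-07 in libraries labelled Gata2, and 4.03, SE 0.45, adjusted p = 1.03e-05 in WT). The difference between the label effects at Week2 and Day0 was called for 0 members and had an unadjusted p under 0.05 for 1, Gbp2 (1.35, SE 0.64, adjusted p = 0.876). Over all genes 1459 of 31164 had an unadjusted p under 0.05.

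Most members varied together within each set of libraries, which share a cell source by label and differ in depth. The LSK set holds both Day0 and Day2 libraries, so its correlations include the time change given above and are not separate from it. Over the 10 LSK libraries, each member was correlated, on log2(CPM + 1), with the mean of the other 9. Tgtp2 was closest to the rest (r = 0.984), followed by Igtp (0.883), Gbp7 (0.869), Iigp1 (0.859), Irgm1 (0.854), Gbp3 (0.796), Irgm2 (0.764) and Gbp2 (0.572). Gbp6 (0.0192) and Ifi47 (-0.308) did not follow them. Over the 6 Week2 libraries r ran between 0.903 for Gbp6 and 0.996 for Igtp, and Ifi47 followed the others there (0.97). The 8 protein-coding genes most like the members' mean profile in LSK libraries, of 10271 searched, were Mier2 (r = 0.984), Itga9 (0.972), Parp10 (0.968), Gba2 (0.967), Bcl2l11 (0.966), Plppr3, Shisa8 and Macrod1 (0.965 each). In Week2 libraries, of 10032 searched, they were Hsdl2 (0.999), Esd, Ciao2a, Fbxo38, Pak1ip1, Fli1, Selenos and Dcun1d2 (0.998 each). With Spearman in place of Pearson correlation 0 of the 8 were shared in the LSK set. In Week2 libraries Esd, Ciao2a, Fbxo38, Pak1ip1, Selenos and Dcun1d2 had a Spearman correlation of 1.0, the highest possible. Over 6 libraries genes can tie at that value, so a count of shared names cannot compare the measures there. The names are a description of these libraries.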

How the data were processed

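The authors deposited raw read counts for 45706 Ensembl gene IDs in 16 mouse marrow libraries, and all 16 columns were used. The submitters' processing notes name Trimmomatic 0.38, STAR 2.5.2b and mm10; counting program, strand setting and annotation were not found in the labels. Per the labels' protocols there were 2 library kits, with no record of which sample had which. GENCODE M21 named 45143 IDs. Counts were tested with edgeR 4.0.16 in R 4.3.3 (TMM, filterByExpr, robust quasi-likelihood test, Benjamini-Hochberg over all tested genes, adjusted p under 0.05). One fit held the LSK libraries, another those of Week2, and a fit of all 16 gave Week2 over Day0. SE is the log2 fold change over the root of F. Levels are TMM-scaled CPM. A count of 0 allows up to 3 counts, for counting error only. Alternatives were other scalings, filters, DESeq2 1.42.0, limma 3.58.1 voom, protein-coding genes alone, other sets of libraries, sex, replicate block, each library left out (a lone library is assumed to vary like the others) and, chosen after seeing the data, the TEC share. Members and gene lists were chosen with earlier results of these data known. The text names all members, the called genes of lowest p from each list (at most 3), Gata2, Irf1 and the 8 genes most like the members; Kit, Ly6a, Irgc1 and markers at 0 counts were named after seeing their values. A further gene of that rule is not reported here. The tests were tried on simulated data. No replicate pair was a repeat of 1 library.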

Additional observations from a re-analysis of the deposited data

How the results depend on the processing

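Of the named members' log2 fold changes between Day2 and Day0, 91 of 110 alternative values kept their direction and call in libraries labelled Gata2 and 124 of 154 in WT, with 19 and 29 losing the call. The count of members called moved as follows. In libraries labelled Gata2 it was 5 over time and became 9 with DESeq2, 9 with limma voom, 8 with the TEC share as a term, 9 with the compared groups alone, 1 with all 16 libraries and 3 with the replicate block. All genes called moved alongside, from 1782 of 19162 to 3471, 4088, 5031, 5676 of 17806, 1213 of 31164 and 745 in the same order. In WT it was 7 and became 4 with all 16 libraries and 4 with the compared groups alone, with 6414 of 31164 and 1199 of 17619 genes called, against 5720 of 19162. Between labels at Week2 it was 0 and became 10 with voom (12016 of 36485 genes). For Week2 over Day0 it was 2 in libraries labelled Gata2 and became 6 with voom (20533 of 31164 genes), and 3 in WT and became 8 with the TEC share (17642 of 31164 genes). Leaving out 1 library, where each group kept more than 1, gave 0 members between labels at each time and for both differences of label effects. All genes called there were 0, apart from up to 4 between labels at Week2. Over time it gave 3 to 5 in libraries labelled Gata2 (698 to 1563 genes called) and 5 to 6 in WT (3191 to 4416 genes). Week2 over Day0 gave 1 to 3 in libraries labelled Gata2 (5420 to 14992 genes) and 0 to 4 in WT (6013 to 13483 genes). Fits that left a lone library in a group moved further for Day0 between labels, over time and for the differences of label effects. Signs turned with the TEC share for Gbp3 between labels at Day0 (-0.002329, adjusted p = 1), for Ifi47 over time in WT (-0.16, adjusted p = 0.669) and for Gbp2 in the difference of label effects (-0.12, adjusted p = 0.99), and without Week2 replicate 1 of the libraries labelled Gata2 for Gbp2 between labels at Week2 (-0.148; its range with 1 library left out was -0.148 to 1.472). The cause was not tested. Replicate numbers were not taken as pairs: deviations of same-numbered LSK libraries correlated at -0.0751 to 0.0487, and those at Week2 at 0.621, -0.736 and 0.374. Differently numbered Week2 libraries gave -0.876 to 0.52. Deviations within groups of 2 or 3 libraries depend on each other, so this check cannot exclude pairing. Upper quartile scaling put the median gene at -0.26 over time in WT, against -0.11 with TMM, and turned no called member's sign. Groups of 2 or 3 libraries and the shallowest library, Day0 WT replicate 1 with 19.6 M counts, both limit these comparisons.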
